A study of Arabidopsis thaliana with 12 samples.

Results

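The genes described here are UDP-glycosyltransferase (*UGT*) genes of *A. thaliana* from the groups *UGT71*, *UGT72*, *UGT76*, *UGT78*, *UGT79*, *UGT84*, *UGT85*, *UGT87*, *UGT89* and *UGT91*. They are a list of locus identifiers outside *UGT73*, *UGT74* and *UGT75*, which were set apart with their response in these data known, and 34 other annotated *UGT* loci, some of them in the same groups, are not on the list. They were 40 of the 38618 loci of the count table, and 34 of the 40 passed the filter on low counts. RNAseq was carried out on leaves of Col-0 wild-type seedlings treated for 1 h with 10 µM progesterone (PO), with 10 µM testosterone (TO) or with 0.12% DMSO as mock treatment, with 4 libraries each. PO was dissolved in 0.12% DMSO, and the solvent of TO is not given separately in the labels. All groups were transferred at an age of 7 days to a medium poor in nutrients and adapted to it for 2 days, although the growth protocol in the labels gives another age. The comparisons ask whether the *UGT* family beyond *UGT73*, *UGT74* and *UGT75* changed as a whole after either steroid.

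UGT enzymes move a sugar from a UDP-sugar to a small molecule, which usually makes it more soluble and less active and prepares it for storage in the vacuole. Plants use them on hormones, on phenolic compounds such as flavonoids and lignin precursors, and on foreign compounds. The groups treated here include enzymes for abscisic acid (*UGT71B6*, *UGT71C5*), lignin precursors (*UGT72E1*, *UGT72E2*, *UGT72E3*), cytokinins (*UGT76C1*, *UGT76C2*, *UGT85A1*), defence signals (*UGT76B1*), flavonoids (*UGT78D1*, *UGT78D2*, *UGT78D3*) and sinapate and its relatives (*UGT84A1* to *UGT84A4*).

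Total counts lay between 45185769 and 63445014 in the PO libraries, between 41036335 and 51856000 in the TO libraries and between 50443138 and 60728111 in the DMSO libraries. Levels are given in CPM, counts scaled by the TMM method to libraries of equal size. A count of 0 allows up to 3 counts in a library, which were 0.047 to 0.0723 CPM, and this limit covers counting error only. Of the counts from 1 to 20, between 67.8% and 72.3% per library were even, and a fragment counted for each of its reads would raise the limit. The summed level of 6 leaf markers was 23222 to 25960 CPM in PO, 21408 to 24345 CPM in TO and 23228 to 29035 CPM in DMSO, with no marker at 0. The summed level of 7 root markers was 105 to 209 CPM in PO, 189 to 327 CPM in TO and 132 to 179.9 CPM in DMSO, none of them at 0 in any group. Nearly all of it was *BGLU23*, with 104 to 208 CPM in PO, 188 to 326 CPM in TO and 130.2 to 178 CPM in DMSO. *WOX5* had 0.505 to 1.69 CPM in PO, 0.618 to 1.35 CPM in TO and 1.21 to 1.59 CPM in DMSO. Of the 7 root markers, 4 passed the filter, and 3 of these were higher in TO and 2 in PO than in DMSO. The median log2 difference of the 4 was 1.06 in TO and -0.08 in PO. At an unadjusted p under 0.05 by edgeR, 2 were higher in TO (against 4.64% of all tested loci) and 0 in PO (against 5.96%). The part of root tissue in the results below was not tested. The summed level of 5 flower markers was 17.3 to 26.3 CPM in PO, 14.1 to 25.4 CPM in TO and 12.5 to 30.7 CPM in DMSO, where *AP3* and *AP1* were at 0.

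The promoters of 4 genes show what the sequence before these genes holds. TGACG is the core of the sites that TGA factors bind, a family of bZIP factors with a known role in the response of plants to foreign compounds. *UGT76B1* and *UGT87A2* had the smallest p in the comparison of PO with DMSO and hold no TGACG in the 250 bases before the gene start. *UGT84A1* holds 3 and *UGT84A2* holds 2, and *UGT84A2* was itself lower in PO, with an unadjusted p of 0.0468 by edgeR. Most of the 40 promoters lack TGACG, so the 4 do not stand for the others. A link between the motif and the response was not tested. The sequences are from RefSeq TAIR10.1, run 5′ to 3′ on the strand of the gene, and have TGACG and its reverse complement CGTCA in capitals. They lie at chr3:3556304-3556553 on the plus strand (*UGT76B1*), chr2:12871734-12871983 on the plus strand (*UGT87A2*), chr4:8850517-8850766 on the minus strand (*UGT84A1*) and chr3:7595430-7595679 on the plus strand (*UGT84A2*).
UGT76B1: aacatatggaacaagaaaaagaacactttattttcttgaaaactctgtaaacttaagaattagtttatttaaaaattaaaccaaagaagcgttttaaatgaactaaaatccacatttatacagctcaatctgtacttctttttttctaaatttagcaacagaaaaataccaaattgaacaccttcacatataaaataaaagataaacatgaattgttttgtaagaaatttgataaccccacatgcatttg
UGT87A2: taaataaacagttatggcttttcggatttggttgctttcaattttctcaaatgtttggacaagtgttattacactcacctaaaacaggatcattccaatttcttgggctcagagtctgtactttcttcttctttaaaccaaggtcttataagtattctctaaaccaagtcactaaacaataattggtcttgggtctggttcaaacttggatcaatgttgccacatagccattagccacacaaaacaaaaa
UGT84A1: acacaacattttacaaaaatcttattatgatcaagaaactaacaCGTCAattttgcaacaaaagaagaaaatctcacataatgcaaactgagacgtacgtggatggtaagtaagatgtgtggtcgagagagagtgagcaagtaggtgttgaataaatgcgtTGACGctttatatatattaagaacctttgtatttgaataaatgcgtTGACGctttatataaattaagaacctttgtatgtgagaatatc
UGT84A2: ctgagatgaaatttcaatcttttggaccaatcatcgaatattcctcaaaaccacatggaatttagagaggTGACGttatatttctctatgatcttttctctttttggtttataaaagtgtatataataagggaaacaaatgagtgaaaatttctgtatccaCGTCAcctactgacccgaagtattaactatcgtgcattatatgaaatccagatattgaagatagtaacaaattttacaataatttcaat

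TGACG, on either strand, was found in 6 of the 40 promoters (15.0%), against 18.6% of the 27443 promoters of protein-coding genes. In *UGT73*, *UGT74* and *UGT75* it was found in 10 of 24 promoters (41.7%). The 6 promoters were those of *UGT71C5*, *UGT72B3*, *UGT76C2*, *UGT84A1*, *UGT84A2* and *UGT85A7*. TTGAC, the core of the W-box bound by WRKY factors, was found in 18 of the 40 (45.0%), against 44.9% of all promoters, and its letters can overlap those of TGACG. The G-box CACGTG was found in 5 of the 40 (12.5%), against 6.49% of all promoters, and AACGTG in 4 (10.0%), against 7.54%. None of the 7 genes that edgeR gave an unadjusted p under 0.05 and a higher level in TO held TGACG in this window. Of these, *UGT76E11* held TTGAC and *UGT76E2* held CACGTG. Most of the 40 promoters lack TGACG, and 7 genes are too few to compare with the share of all promoters. *UGT84A2*, which edgeR gave an unadjusted p under 0.05 and a lower level in PO, held 2. Whether the motif goes with the response was not tested. A match describes the letters of this window and says nothing about binding.

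The 40 genes lie on all 5 chromosomes of TAIR10.1, with 12 on chromosome 1, 7 on chromosome 2, 7 on chromosome 3, 5 on chromosome 4 and 9 on chromosome 5. Their coding sequences are 1317 to 1533 bases long. 23 genes, those of *UGT71*, *UGT72*, *UGT79*, *UGT84*, *UGT89* and *UGT91*, have 1 coding exon, and 17 genes, those of *UGT76*, *UGT78*, *UGT85* and *UGT87*, have 2. The identity of the coding sequences ranged from 46.7% to 89.5% over the 780 pairs, with a median of 49.9%. The closest pair was *UGT72E2* and *UGT72E3* with 89.5%, followed by *UGT76E1* and *UGT76E2* with 88.3% and by *UGT76E11* and *UGT76E12* with 87.7%. These pairs share identical stretches of 71, 59 and 62 bases, so reads of the members of a pair may have been exchanged. *UGT71D1* shares a stretch of 103 bases with the locus AT2G29710, and its counts are uncertain for the same reason. Exons of *UGT71B6*, *UGT76E1*, *UGT76E11*, *UGT76E12* and *UGT85A4* lie mostly or fully opposite to another annotated locus on the other strand. The libraries were strand-specific, but the strand setting of the counting is not given in the sources used here, and values of these genes include an uncertain part of the other locus if strand was not used.

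Levels can be compared between genes only per length, as CPM per kb of exon. In DMSO, *UGT85A1* (AT1G22400, chr1:7903660-7906969), which glucosylates the cytokinin zeatin, had the highest mean level per length with 117 ± 43.3 CPM per kb (SD, n = 4). *UGT72E1*, which acts on lignin precursors, followed with 63.8 ± 4.73 CPM per kb and *UGT85A2* with 50.8 ± 3.76 CPM per kb (SD, n = 4 each). The mean of *UGT85A1* lay more than its SD above both, although its DMSO libraries spread from 168 to 364 CPM. *UGT71C5*, an abscisic acid glucosyltransferase, had 27.2 ± 4.20 CPM per kb, *UGT85A4* had 20.7 ± 2.34 CPM per kb and *UGT71C4* had 19.7 ± 3.35 CPM per kb, and the last pair differed by less than its spread. At the low end of the tested genes, *UGT76E2* had 0.0522 ± 0.0388 CPM per kb.

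**Figure D1:**
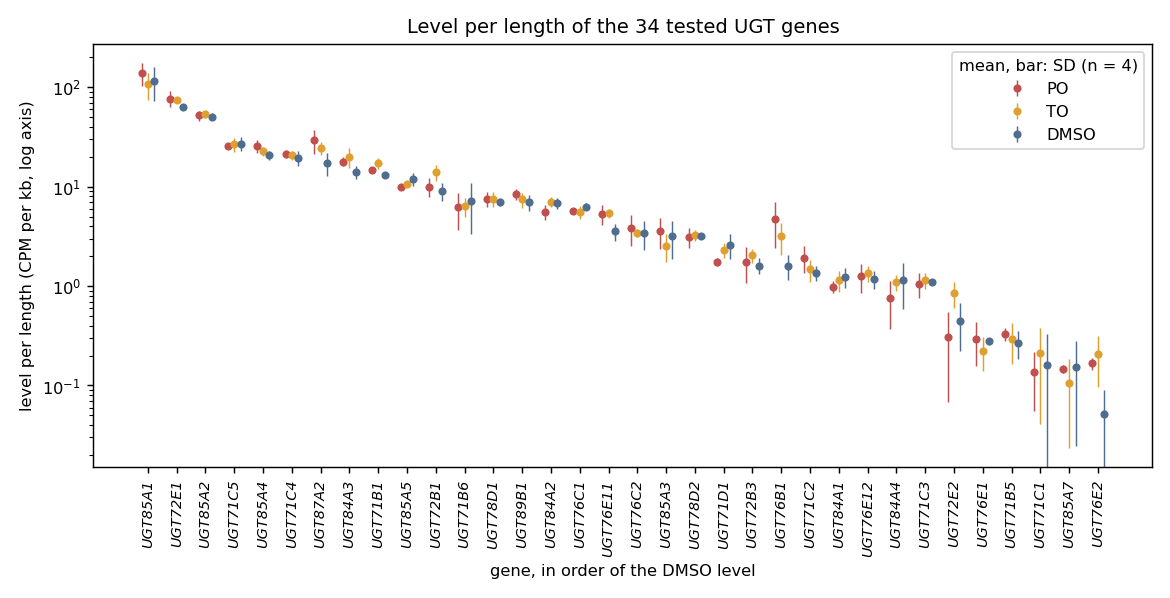
Mean level per length in CPM per kb of exon (log axis) of the 34 tested *UGT* genes in PO, TO and DMSO, in order of the DMSO level, with bars for the SD (n = 4). The DMSO level runs from 117 for *UGT85A1* to 0.0522 CPM per kb for *UGT76E2*. The lower end of the DMSO bar of *UGT71C1* lies below 0 and runs off the axis.

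The 6 genes that did not pass the filter had few counts in any group. *UGT84B2* had 0 counts in all 12 libraries. *UGT78D3*, a flavonol arabinosyltransferase, had 0 counts in PO, 0 in TO and 2 in DMSO, and *UGT72E3* had 6 in PO, 4 in TO and 0 in DMSO, summed over 4 libraries. *UGT79B1*, which adds xylose to anthocyanins, had 6 in PO, 0 in TO and 20 in DMSO. *UGT84B1*, which glucosylates auxin, had 5 in PO, 4 in TO and 8 in DMSO. *UGT91A1* had 14 in PO, 11 in TO and 1 in DMSO.

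As a whole, these genes were slightly above DMSO on the median after either steroid. The size of this difference, and over both steroids also its sign, depended on single DMSO libraries. The test was the quasi-likelihood test of edgeR, whose p-values were adjusted by Benjamini and Hochberg's method over the 23203 tested loci, and a logFC (base 2) above 0 means more in PO or TO than in DMSO. The direction of every difference rests on the treatment labels of the libraries, which no gene in the design checks independently. The median logFC of the 34 genes was 0.12 in PO and 0.09 in TO, against -0.01 and 0.00 for all tested loci. Without DMSO replicate 1 it was 0.02 in PO and 0.05 in TO, and without DMSO replicate 2 it was 0.14 in PO and 0.13 in TO. In TO it also moved with the other libraries, to 0.14 without DMSO replicate 4, 0.16 without TO replicate 1 and 0.06 without TO replicate 4. The logFC was above 0 for 21 of 34 genes in PO (61.8%, against 48.2% of all loci) and for 23 of 34 in TO (67.6%, against 50.1%). PO and TO were compared with the same 4 DMSO libraries, so what they share is not independent, and in bulk leaves fewer cells of a type and less RNA per cell cannot be told apart.

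The 34 genes were also summarised by their median in each library. Relative to the DMSO mean, on the scale of log2(CPM + 0.5), the median was 0.01, 0.10, 0.01 and 0.13 in the PO libraries, -0.01, 0.11, 0.17 and 0.13 in the TO libraries, and -0.11, 0.07, -0.02 and 0.03 in the DMSO libraries. The groups overlapped, and DMSO replicate 1 was the lowest of the 12 libraries. In it, 8 of the 34 genes were above their DMSO mean, against 24 in DMSO replicate 2. The medians of the 23 tested genes of *UGT73*, *UGT74* and *UGT75* were 0.34 to 0.60 in the PO libraries, 0.45 to 0.90 in the TO libraries and -0.12 to 0.14 in the DMSO libraries, which is a description only, since these groups were set apart for their response.

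**Figure D2:**
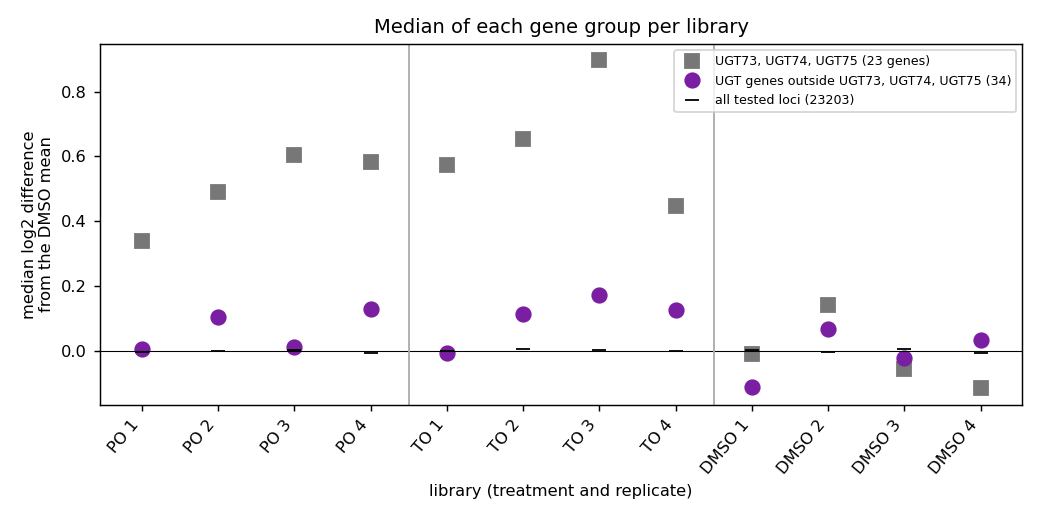
Median difference from the DMSO mean on the scale of log2(CPM + 0.5), in each of the 12 libraries (PO, TO and DMSO, replicates 1 to 4), for the 34 tested *UGT* genes outside *UGT73*, *UGT74* and *UGT75* (circles), the 23 tested genes of those groups (squares) and all 23203 tested loci (dashes). The circles lie between -0.11 and 0.17 and overlap between treatments, while the squares of PO and TO lie above those of DMSO.

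In PO, edgeR called 0 of the 34 genes at an adjusted p under 0.05, against 0.168% of all tested loci, which is less than 1 gene in 34. At an unadjusted p under 0.05, 10 of 34 genes (29.4%) differed from DMSO, against 12.1% of all tested loci. Without DMSO replicate 1 the number was 6, against 8.11% of all tested loci. Of the 10, 7 were higher in PO (20.6%, against 5.96%) and 3 were lower (8.82%, against 6.16%). The 7 were *UGT72E1*, *UGT76B1*, *UGT76E2*, *UGT76E11*, *UGT84A3*, *UGT85A4* and *UGT87A2*, and the 3 were *UGT71D1*, *UGT84A2* and *UGT85A5*. DESeq2 called 2 genes in PO, *UGT76B1* and *UGT87A2*, against 1.0% of the 31813 loci it tested. It covered 39 of the 40 genes, and its loci include those with too few counts for edgeR's filter, so its shares are not over the same loci. The PO libraries did not overlap those of DMSO for 1 gene that was higher (2.94%, against 2.85% of all loci), *UGT76E2*, and for 1 that was lower (2.94%, against 2.72%), *UGT71D1*. All DMSO counts of *UGT76E2* were below the filter's minimum count of 10, so it was tested only through PO and TO, where it is higher.

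In TO, edgeR called 0 of the 34 genes at an adjusted p under 0.05, against 0.284% of all tested loci. At an unadjusted p under 0.05, 7 of 34 genes (20.6%) differed from DMSO, against 9.51%. All 7 were higher in TO (20.6%, against 4.64% of all loci) and 0 were lower (against 4.87%). They were *UGT71B1*, *UGT72B1*, *UGT76B1*, *UGT76E2*, *UGT76E11*, *UGT84A3* and *UGT87A2*, of which *UGT76E2* passed the filter only through PO and TO. DESeq2 called 1 gene in TO, *UGT71B1*, against 0.934% of its loci. The TO libraries lay above those of DMSO without overlap for 4 genes (11.8%, against 2.9%), which were *UGT71B1*, *UGT72B1*, *UGT72E1* and *UGT76E11*, and for 0 genes below them (against 2.48%).

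For the mean of the PO and TO effects against DMSO, taken from the same fit, edgeR called 0 of 34 genes, against 0.315% of all tested loci, and DESeq2 called 3, *UGT76B1*, *UGT76E11* and *UGT87A2*, against 1.43% of its loci. At an unadjusted p under 0.05, 11 genes differed (32.4%, against 11.6% of all tested loci), and 7 without DMSO replicate 2 (against 10.0%). Of the 11, 9 were higher (26.5%, against 5.57%) and 2 were lower (5.88%, against 6.08%). The logFC was above 0 for 22 genes (64.7%, against 48.8%), the median was 0.09, which was -0.01 without DMSO replicate 1 and 0.17 without DMSO replicate 2.

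**Figure D3:**
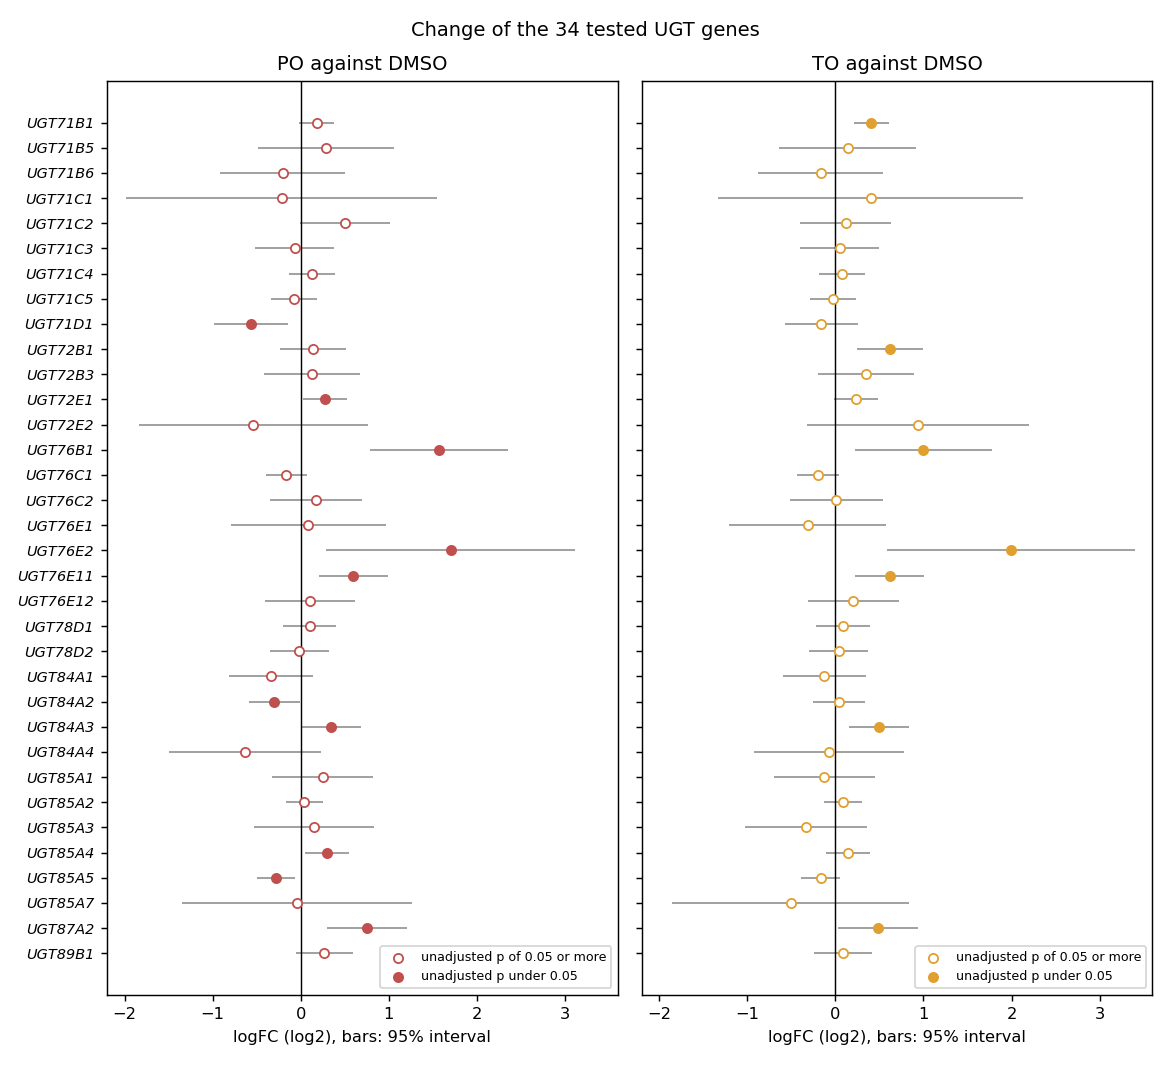
LogFC (log2) with 95% interval of the 34 tested *UGT* genes in PO against DMSO (left) and TO against DMSO (right), where filled points have an unadjusted p under 0.05. There are 10 filled points in PO, of which 7 lie above 0, and 7 in TO, which all lie above 0, and no gene had an adjusted p under 0.05.

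In *UGT73*, *UGT74* and *UGT75*, edgeR called 6 of the 23 tested genes in PO, 6 in TO and 7 over both steroids, all of them higher. The shares of all tested loci were 0.168%, 0.284% and 0.315%. DESeq2 called 11, 10 and 13 of 24 genes, against 1.0%, 0.934% and 1.43% of its loci. The median logFC of the 23 genes was 0.52 in PO and 0.60 in TO. The 25 tested genes among the 34 other annotated *UGT* loci, which belong to neither set, had 0.05 in PO and 0.28 in TO as the median of their logFC. For these genes, edgeR called 0, while DESeq2 called 0 in PO and 1 in TO. At an unadjusted p under 0.05 by edgeR, 3 of them differed in PO and 4 in TO, against 12.1% and 9.51% of all tested loci. These sets are given side by side as a description, without a test between them, and the response of *UGT73*, *UGT74* and *UGT75* was known when the family was divided.

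Among the genes with the strongest differences, *UGT76B1* (AT3G11340, chr3:3556554-3558361) glucosylates salicylic acid, N-hydroxypipecolic acid and isoleucic acid, which are signals of plant defence. It had 3.29, 9.19, 12.9 and 7.41 CPM in PO and 6.21, 3.13, 7.86 and 4.96 CPM in TO, against 2.49, 3.80, 1.98 and 2.79 CPM in DMSO. PO replicates 2 to 4 and TO replicates 1, 3 and 4 were above all DMSO libraries, while PO replicate 1 and TO replicate 2 lay within their range. The logFC of *UGT76B1* was 1.57 ± 0.36 (SE) in PO, with an adjusted p of 0.147 in edgeR's quasi-likelihood test, and 1.00 ± 0.36 in TO, with an adjusted p of 0.359. DESeq2 gave an adjusted p of 0.00166 in PO, and edgeR gave 0.0158 without PO replicate 1. Over all alternatives, the adjusted p in PO ranged from 0.00166 to 0.370. The 8 genes of N-hydroxypipecolic acid and salicylic acid synthesis, of which 7 were tested, were on the median at a logFC of -0.16 in PO and -0.30 in TO. At an unadjusted p under 0.05, 1 was higher and 1 lower in PO, and 1 was higher and 3 lower in TO, and edgeR and DESeq2 called 0 of them. Over all tested loci, 5.96% were higher and 6.16% lower in PO, and 4.64% were higher and 4.87% lower in TO.

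*UGT87A2* (AT2G30140, chr2:12871984-12873866), known for an effect on flowering time, had the smallest p in PO after *UGT76B1*. It had 31.0, 57.5, 64.1 and 54.2 CPM in PO and 48.6, 34.9, 46.8 and 41.5 CPM in TO, against 22.9, 41.8, 27.5 and 30.5 CPM in DMSO. PO replicates 2 to 4 were above all DMSO libraries, and PO replicate 1 and TO replicates 2 and 4 were below DMSO replicate 2. Its logFC was 0.75 ± 0.21 (SE) in PO, with an adjusted p of 0.213 by edgeR, and 0.49 ± 0.21 in TO, with an adjusted p of 0.487. In PO, the adjusted p was 0.0376 with DESeq2 and 0.0309 by edgeR without PO replicate 1. The calls over all loci depended on PO replicate 1 as well, and edgeR called 39 loci in PO with it and 144 without it.

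*UGT76E11* (AT3G46670, chr3:17192589-17194397), which acts on flavonoids, was higher in both treatments by a like amount. It had 6.30, 9.69, 11.3 and 9.93 CPM in PO and 10.3, 8.88, 10.2 and 8.25 CPM in TO, against 4.35, 6.70, 7.05 and 6.53 CPM in DMSO. All TO libraries and PO replicates 2 to 4 were above DMSO, and PO replicate 1 was not. Its logFC was 0.60 ± 0.18 (SE) in PO and 0.61 ± 0.18 in TO, with adjusted p of 0.236 and 0.244 by edgeR. A long noncoding RNA locus lies opposite to its exons over 1732 bases. Its neighbour *UGT76E12* had a logFC of 0.11 in PO and 0.21 in TO, with unadjusted p of 0.658 and 0.406 by edgeR.

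*UGT76E2* (AT5G59590, chr5:24008865-24010688) passed the filter with few counts, which were 16, 20, 18 and 10 in PO and 18, 6, 16 and 30 in TO, against 0, 5, 8 and 5 in DMSO. In DMSO all counts were below the filter's minimum count of 10, so the gene was tested only through PO and TO, where it is higher. Its difference from DMSO and the lack of overlap in PO are therefore a description only. All PO libraries were above all DMSO libraries, while TO replicate 2 was below DMSO replicate 3. Its logFC was 1.70 ± 0.66 (SE) in PO and 2.00 ± 0.66 in TO, with adjusted p of 0.335 and 0.302 by edgeR. Without DMSO replicate 1, which had no count, the logFC was 1.25 in PO and 1.55 in TO. The close copy *UGT76E1*, which is opposite to a protein-coding locus over 1679 bases, had a logFC of 0.08 in PO and -0.32 in TO. The cytokinin glucosyltransferases of this group, *UGT76C1* and *UGT76C2*, had logFC of -0.16 and 0.17 in PO and -0.19 and 0.01 in TO, each with an unadjusted p above 0.05.

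*UGT71B1* (AT3G21750, chr3:7664345-7666305) was the gene with the smallest adjusted p in TO. It had 29.5, 29.2, 31.1 and 26.3 CPM in PO and 28.9, 35.8, 32.5 and 38.7 CPM in TO, against 25.2, 25.9, 24.1 and 27.3 CPM in DMSO. All TO libraries were above all DMSO libraries, and PO replicate 4 was below DMSO replicate 4. The logFC was 0.18 ± 0.09 (SE) in PO, with an adjusted p of 0.451 by edgeR, and 0.41 ± 0.09 in TO, with an adjusted p of 0.114. In TO, DESeq2 gave an adjusted p of 0.0182, and edgeR gave 0.0447 without TO replicate 1. *UGT71D1* (AT2G29730, chr2:12703469-12705206) was lower in PO, with 3.25, 3.04, 3.28 and 2.61 CPM in PO and 4.18, 4.49, 2.96 and 4.50 CPM in TO, against 4.39, 6.32, 3.84 and 3.48 CPM in DMSO. All PO libraries were below all DMSO libraries, while TO overlapped with DMSO. Its logFC was -0.56 ± 0.20 (SE) in PO, with an adjusted p of 0.294 by edgeR, and -0.16 ± 0.19 in TO.

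The abscisic acid glucosyltransferases *UGT71B6* and *UGT71C5* had logFC of -0.20 and -0.08 in PO and -0.17 and -0.03 in TO, with unadjusted p above 0.05 by edgeR. Of the 11 genes of abscisic acid turnover, 10 were tested, and the median of their logFC was 0.01 in PO and 0.31 in TO. 1 of them was lower in PO and 2 were higher in TO at an unadjusted p under 0.05, against 6.16% and 4.64% of all tested loci. For these genes, edgeR called 0, while DESeq2 called 1 in TO. Over the 9 listed genes of *UGT71*, the summed level was 137 ± 7.65 CPM in PO and 143 ± 6.55 CPM in TO, against 135 ± 15.3 CPM in DMSO (SD, n = 4 each).

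**Figure D4:**
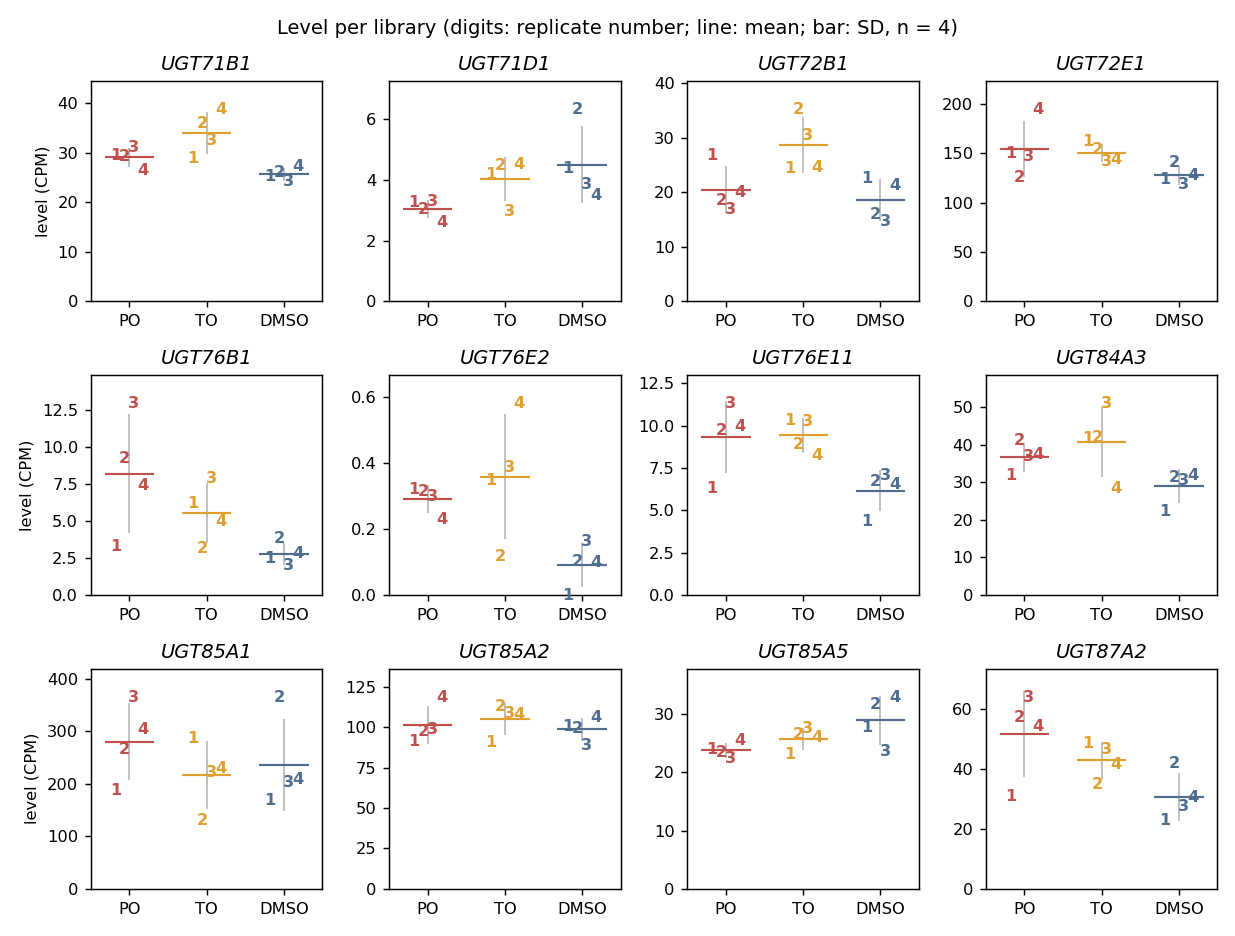
Level in CPM of 12 *UGT* genes in the libraries of PO, TO and DMSO, with digits for the replicate number, a line for the mean and a bar for the SD (n = 4). For *UGT76B1* and *UGT87A2*, PO replicates 2 to 4 lie above all DMSO libraries and PO replicate 1 lies among them, and for *UGT71B1*, *UGT72B1*, *UGT72E1* and *UGT76E11* all TO libraries lie above DMSO.

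In *UGT72*, the genes for lignin precursors and foreign phenols, *UGT72B1* (AT4G01070, chr4:461513-463556) acts on chlorinated phenols and anilines. It had 26.7, 18.5, 16.8 and 19.9 CPM in PO and 24.4, 35.1, 30.3 and 24.6 CPM in TO, against 22.5, 16.0, 14.6 and 21.2 CPM in DMSO. All TO libraries were above all DMSO libraries, while PO and DMSO overlapped. Its logFC was 0.14 ± 0.17 (SE) in PO, with an adjusted p of 0.775 by edgeR, and 0.62 ± 0.17 in TO, with an adjusted p of 0.217. *UGT72E1* (AT3G50740, chr3:18855043-18857040) had 150.2, 126, 147 and 194 CPM in PO and 162, 154, 142 and 144 CPM in TO, against 124, 141, 118 and 127 CPM in DMSO. All TO libraries were above all DMSO libraries, by little, and PO replicate 2 lay within DMSO. Its logFC was 0.27 ± 0.12 (SE) in PO and 0.24 ± 0.12 in TO, with adjusted p of 0.368 and 0.552 by edgeR. Of 20 genes of the phenylpropanoid pathway, which makes the lignin precursors, 19 were tested. Their median logFC was -0.14 in PO and -0.10 in TO, with 0 called by edgeR, while DESeq2 called 0 in PO and 1 in TO. At an unadjusted p under 0.05 by edgeR, 6 were lower in PO and 3 in TO, against 6.16% and 4.87% of all tested loci, and none was higher.

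Among the tested genes of *UGT84*, *UGT84A1* to *UGT84A4*, whose enzymes form sinapoyl and other cinnamoyl glucose esters, the logFC differed in direction. *UGT84A3* (AT4G15490, chr4:8852656-8854706) had 31.7, 41.0, 36.7 and 37.2 CPM in PO and 41.6, 41.9, 50.9 and 28.4 CPM in TO, against 22.2, 31.2, 30.5 and 31.8 CPM in DMSO. PO replicate 1 and TO replicate 4 were below the highest DMSO library, and all other treated libraries were above it. Its logFC was 0.34 ± 0.16 (SE) in PO and 0.49 ± 0.16 in TO, with adjusted p of 0.409 and 0.291 by edgeR. *UGT84A2*, a sinapate glucosyltransferase, had a logFC of -0.30 in PO and 0.04 in TO, and *UGT84A1* of -0.34 and -0.12, with adjusted p of 0.406, 0.962, 0.548 and 0.919 by edgeR. *UGT84A4* had a logFC of -0.63 in PO and -0.07 in TO, with 95% intervals of -1.50 to 0.23 and -0.93 to 0.78.

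In *UGT85*, 5 of the 6 listed genes lie close together on chromosome 1. *UGT85A1* had 188, 265, 365 and 303 CPM in PO and 286, 129, 221 and 229 CPM in TO, against 168, 364, 203 and 208 CPM in DMSO. The groups overlapped, and the libraries of 1 treatment differed by more than the treatments did. Its logFC was 0.25 ± 0.27 (SE) in PO and -0.12 ± 0.27 in TO, with adjusted p of 0.736 and 0.936 by edgeR. *UGT85A2* (AT1G22360, chr1:7894807-7897761) had 91.1, 97.4, 98.9 and 118 CPM in PO and 90.6, 113, 109 and 108 CPM in TO, against 100.5, 99.1, 88.7 and 106 CPM in DMSO, and the groups overlapped. Its 95% interval of the logFC was -0.17 to 0.25 in PO and -0.12 to 0.30 in TO. *UGT85A5* (AT1G22370, chr1:7897915-7900335) had 24.0, 23.5, 22.4 and 25.5 CPM in PO and 23.1, 26.6, 27.5 and 25.9 CPM in TO, against 27.7, 31.7, 23.6 and 32.9 CPM in DMSO. The DMSO libraries other than replicate 3 were above all PO libraries. Its logFC was -0.28 ± 0.10 (SE) in PO and -0.17 ± 0.10 in TO, with adjusted p of 0.307 and 0.668 by edgeR. *UGT85A4*, which lies apart on the same chromosome, had a logFC of 0.30 in PO and 0.14 in TO, with adjusted p of 0.342 and 0.779 by edgeR. Of the 17 genes of cytokinin response and breakdown, 15 were tested, and their median logFC was -0.46 in PO and -0.16 in TO. At an unadjusted p under 0.05 by edgeR, 4 were lower in PO and 1 in TO, against 6.16% and 4.87% of all tested loci. None was called by edgeR or DESeq2.

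*UGT78D1* and *UGT78D2*, which add rhamnose and glucose to flavonols, had logFC of 0.10 and -0.02 in PO and 0.09 and 0.04 in TO, and *UGT89B1* had 0.27 in PO and 0.09 in TO. None of these had an unadjusted p under 0.05 by edgeR. Of 16 genes of the flavonoid pathway, 11 were tested, and their median logFC was -0.25 in PO and 0.18 in TO. At an unadjusted p under 0.05 by edgeR, 3 were lower in PO, against 6.16% of all tested loci, and none differed in TO. For the genes that supply UDP-sugars, the median was 0.04 in PO and 0.02 in TO over the 16 tested of 17, with 0 called by edgeR or DESeq2. Of these, 0 in PO and 1 in TO had an unadjusted p under 0.05, against 12.1% and 9.51% of all tested loci. *A. thaliana* has a pair of steryl glucosyltransferases outside these *UGT* groups, which put glucose on membrane sterols, and their median logFC was -0.01 in PO and -0.02 in TO, with 0 at an unadjusted p under 0.05.

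The spread between replicates set what could be seen for each gene. The coefficient of variation of the 34 genes over the 4 libraries of a group had a median of 19.9% in PO (1.79% to 77.8%), 18.0% in TO (6.14% to 80.8%) and 19.2% in DMSO (3.97% to 106%). The highest values in DMSO were those of *UGT71C1* (106%) and *UGT85A7* (83.8%), which had few counts, with 2 to 40 counts per DMSO library for *UGT71C1*. *UGT72E2*, a glucosyltransferase of lignin precursors, had 1.00, 0.752, 0.0330 and 0.390 CPM in PO and 0.928, 1.65, 2.00 and 1.47 CPM in TO, against 0.383, 0.966, 1.27 and 0.557 CPM in DMSO. PO replicate 3 was the lowest library of this gene, and its groups overlapped.

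**Figure D5:**
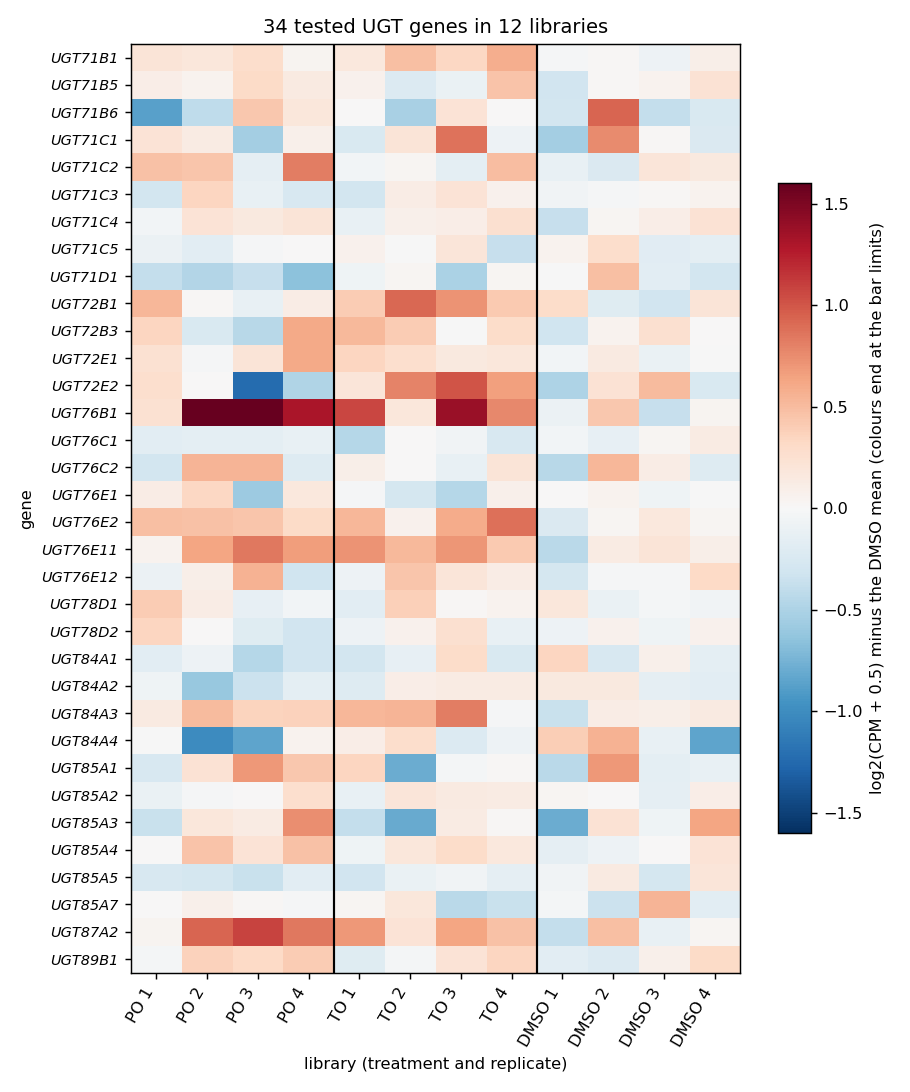
Difference from the DMSO mean on the scale of log2(CPM + 0.5) for the 34 tested *UGT* genes (rows) in the 12 libraries (columns, PO, TO and DMSO, replicates 1 to 4), with red for higher and blue for lower. *UGT76B1*, *UGT76E11* and *UGT87A2* are red in PO replicates 2 to 4 and paler in PO replicate 1, and most other rows hold both colours within a treatment.

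PO and TO share the ring skeleton and differ in the group on the D ring, which is an acetyl group in PO and a hydroxyl group in TO. At the same dose and time, the 34 genes were compared between PO and TO with p-values adjusted over all tested loci. edgeR called 0 of the 34 genes, against 0.0% of all tested loci, and DESeq2 called 0 of them. At an unadjusted p under 0.05, 4 genes differed (11.8%, against 7.68%), which were *UGT71B1*, *UGT72B1*, *UGT72E2* and *UGT84A2*, all lower in PO than in TO (11.8%, against 4.37%), and 0 were higher (against 3.31%). The PO libraries did not overlap those of TO for 0 genes above (against 2.05%) and 0 below (against 2.1%), and the logFC was above 0 for 15 genes (44.1%, against 49.6%). In the order named, the logFC of these 4 genes in PO against TO was -0.23 (95% interval -0.42 to -0.03), -0.48 (-0.85 to -0.11), -1.47 (-2.76 to -0.18) and -0.34 (-0.63 to -0.05), with adjusted p of 0.632, 0.628, 0.632 and 0.632 by edgeR. The count at an unadjusted p under 0.05 was 7 without PO replicate 1 (against 11.5% of all tested loci) and 0 without TO replicate 2 (against 4.4%). For *UGT76B1* the logFC of PO against TO was 0.57 (95% interval -0.18 to 1.33), for *UGT76E11* -0.02 (-0.40 to 0.37) and for *UGT87A2* 0.27 (-0.19 to 0.72), and differences between the steroids up to these bounds could not be seen at this spread. The median logFC over the 34 genes was -0.04, against 0.00 for all tested loci.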

How the data were processed

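RNA of 12 leaf libraries, 4 each of PO, TO and DMSO, was grouped by the treatments of the labels. Per the submitters' processing notes and the methods, reads were trimmed by fastp 0.23.2, mapped on TAIR10.1 by HISAT2 2.2.1, sorted by SAMtools 1.11 and assigned to loci by featureCounts 2.0.1. The authors deposited the raw counts of 38618 loci as whole numbers. Options for strand, overlaps and read pairs are not given in the sources used here, so antisense and duplicated genes are uncertain.

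The filterByExpr filter (minimum count 10) left 23203 loci. edgeR 4.0.16 in R 4.3.3 was run with TMM scaling, a term for treatment only, 9 residual degrees of freedom and a prior count of 0.125, and p-values were adjusted by the Benjamini-Hochberg method. Standard errors and 95% intervals follow from each logFC and its F statistic. DESeq2 1.42.0, other scaling, other filters, fits of the compared groups alone, a replicate block and leaving out each library were alternatives. No pair of libraries agreed within the sampling noise (chi-square per degree of freedom 20.5 to 91.3 in 18 pairs). The methods call the replicates biological without further detail, and the p-values judge each difference against the spread between these libraries.

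Values of every library are given for the 6 genes with the smallest p in PO, the 6 in TO and the 3 with the highest level per length in DMSO. *UGT72E2* was added after its values were seen. The genes and lists were chosen with earlier results of these data known. Coordinates, exon lengths and promoters are from the RefSeq annotation of TAIR10.1, where *UGT91A1* (AT2G22590) has no symbol, *UGT72B1* is GT72B1 and *UGT79B1* is UF3GT. Planned protein features were replaced by those of the coding sequence. On simulated counts of 22979 loci, drawn for PO against DMSO, edgeR recovered 81 of 100 well-expressed loci changed 2-fold and 100 of 100 changed 4-fold, with 9 false calls. Loci with few counts, such as *UGT76E2*, were not among those changed. The simulation had no deviation shared by the loci of a library, so these rates do not carry over to the genes described here.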

Additional observations from a re-analysis of the deposited data

Results flagged for a closer look

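In 3 of 102 sets of 4 libraries, a single library lay far from the other libraries of its treatment, by the gap to its nearest neighbour over the range of the set, and chance gives about 1 in 20. *UGT71B6*, an abscisic acid glucosyltransferase, had 20.7 CPM in DMSO replicate 2, against 8.03 to 8.90 CPM in replicates 1, 3 and 4. *UGT84A2* had 11.3 CPM in TO replicate 1, against 14.2 to 14.5 CPM in replicates 2 to 4. *UGT84A3* had 22.2 CPM in DMSO replicate 1, against 30.5 to 31.8 CPM in replicates 2 to 4.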

How the results depend on the processing

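With DESeq2, 2 genes were called in PO, 1 in TO and 3 over both steroids, while edgeR called 0 each. DESeq2 called 1.0%, 0.934% and 1.43% of all its loci in these comparisons. With each library left out in turn, edgeR called 0 to 2 genes in PO, 0 to 1 in TO and 0 to 3 over both, the highest without PO replicate 1 (without TO replicate 1 in TO). In the fits with the highest numbers, 0.613% of all tested loci were called in PO, 0.264% in TO and 0.686% over both. The number at an unadjusted p under 0.05 with a library left out was 6 to 11 in PO (6 without DMSO replicate 1), 7 to 11 over both steroids (7 without DMSO replicate 2) and 0 to 7 in PO against TO, with 2 without PO replicate 4. The share of all tested loci moved as well. It was 8.11% to 15.7% in PO (8.11% without DMSO replicate 1) and 8.7% to 13.2% over both steroids (10.0% without DMSO replicate 2). In PO against TO it was 4.4% to 11.5%, with 5.17% without PO replicate 4. The median logFC was 0.023 to 0.135 in PO (lowest without DMSO replicate 1), -0.012 to 0.166 over both steroids (without DMSO replicate 1 and without DMSO replicate 2) and -0.057 to 0.024 in PO against TO (highest without TO replicate 3). With each library left out, the logFC was -0.015 to 0.249 for *UGT72B1* in PO (lowest without PO replicate 1) and -0.045 to 0.089 for *UGT85A2* in PO (-0.0082 without DMSO replicate 3, lowest without PO replicate 4). It was -0.263 to 0.045 for *UGT71D1* in TO (highest without DMSO replicate 2) and -0.291 to 0.161 for *UGT85A1* in TO (0.057 without TO replicate 2, highest without DMSO replicate 2). The cause of these sign changes was not tested. Of the 213 alternative values of the counts and medians, 198 kept within their bounds. The bound was a fixed ratio for counts and the SD of the medians of the treated libraries for medians. Many of the 198 were numbers of genes called that stayed at 0, so this share says little about the other values. With the replicate number as a block, 0 genes were called in any comparison, against 0.0% to 0.388% of all tested loci. At an unadjusted p under 0.05 there were 11 in PO, 7 in TO, 10 over both and 3 in PO against TO. Over all tested loci, these shares were 14.1%, 10.3%, 13.0% and 9.43%. The block is not taken as a pairing, since libraries of the same number had correlations between -0.138 and 0.200 of their deviations. The fit of the compared groups alone was not run over both steroids, which need all 12 libraries. Genes with few counts, such as *UGT76E2* and *UGT71C1*, had 95% intervals wider than 2 log2 units.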
